A study of Mus musculus with 4 samples.

Results

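The 467 shared sites described here are the places in the mouse genome where dimethylation of histone H3 at lysine 36 (H3K36me2) was called both with and without melatonin. They were chosen by the positions of the called peaks: every peak of either list that overlapped a peak of the other by 1 bp or more was kept. This gave 471 of 7699 melatonin peaks (6.12%) and 468 of 8361 untreated peaks (5.6%), and peaks linked by overlap were joined into a site. Since the rule itself asks for a peak in both lists, these percentages, and the fact that both libraries are above the calling thresholds at each site, are descriptions and not findings. The cells were mouse bone marrow mesenchymal stem cells (MSCs), cultured in DMEM with 10% serum, and the ChIP used 1 antibody to H3K36me2. The melatonin group received 1 µM melatonin over 24 hours and the other group was untreated. The series design speaks of old donors, while the sample labels give no age, strain, sex or number of animals. Each condition had 1 ChIP library and 1 input library, so no test between the conditions was possible and every difference below is a difference between these libraries.

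H3K36me2 is laid down by NSD1, NSD2, NSD3 and ASH1L, typically as broad domains that run through gene bodies and intergenic sequence. It recruits the DNA methyltransferase DNMT3A and limits the spread of the repressive mark H3K27me3. In bone marrow, MSCs can become bone, fat or cartilage cells, and the study's title connects NSD2 with bone formation by senescent MSCs. A peak list shows where ChIP reads exceeded input and thresholds, and it gives no expression, so the labelled cell type could not be checked by marker RNA.

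Of 448 shared sites that could be compared with annotated promoters, 1 covered a promoter. Promoters were taken from the RefSeq table for GRCm38.p6 as 300 bp around a start. Of 32619 promoters, 68 (0.208%) lay in any melatonin peak and 47 (0.144%) in any untreated peak. Promoter cover was thus rare in the full lists too. Of the 448 sites, which lay on chromosomes with starts in the table, 6 (1.34%) lay within 1 kb of a start. In the full lists, 2.3% of melatonin peaks and 1.52% of untreated peaks lay within 1 kb of a start, so the share at shared sites was near that of all untreated peaks. The median distance to a start was 45.3 kb for shared melatonin peaks and 36.9 kb for the others, and 45.6 and 44.9 kb in the untreated list. Promoter sequences of 4 neighbouring genes are shown, the 2 lncRNA genes whose starts lay nearest to a shared site and the 2 protein-coding genes with a start within 1 kb of one, with each CpG dinucleotide in capitals. CpG was searched as CG, which reads the same on both strands, and all sequences run 5′ to 3′ on the gene's strand.
Gm31202 promoter (lncRNA, chr10:37364312-37364611, minus strand, covered by the untreated peak of the site): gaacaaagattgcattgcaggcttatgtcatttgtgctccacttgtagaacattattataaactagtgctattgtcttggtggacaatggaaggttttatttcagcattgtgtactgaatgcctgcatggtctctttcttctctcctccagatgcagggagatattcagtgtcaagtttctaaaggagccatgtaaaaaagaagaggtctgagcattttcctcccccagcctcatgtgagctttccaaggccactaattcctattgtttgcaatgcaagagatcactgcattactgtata
Gm14051 promoter (lncRNA, chr2:132152611-132152910, plus strand, site 253 bp downstream of the start): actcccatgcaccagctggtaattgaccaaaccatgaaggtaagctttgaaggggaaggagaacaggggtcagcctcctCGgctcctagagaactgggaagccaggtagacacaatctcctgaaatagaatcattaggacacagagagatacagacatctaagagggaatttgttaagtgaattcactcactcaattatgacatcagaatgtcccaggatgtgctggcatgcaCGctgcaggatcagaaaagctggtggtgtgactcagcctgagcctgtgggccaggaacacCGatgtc
Prl3d1 promoter (placental lactogen gene, chr13:27093939-27094238, plus strand, site 885 bp upstream): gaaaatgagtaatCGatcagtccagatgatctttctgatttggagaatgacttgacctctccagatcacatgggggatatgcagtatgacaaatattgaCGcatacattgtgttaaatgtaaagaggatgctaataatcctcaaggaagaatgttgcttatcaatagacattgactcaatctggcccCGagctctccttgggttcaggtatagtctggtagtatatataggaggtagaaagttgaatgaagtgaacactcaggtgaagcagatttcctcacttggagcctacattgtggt
Atp6v1f promoter (subunit of the proton pump V-ATPase, chr6:29467533-29467832, plus strand, site 430 bp upstream): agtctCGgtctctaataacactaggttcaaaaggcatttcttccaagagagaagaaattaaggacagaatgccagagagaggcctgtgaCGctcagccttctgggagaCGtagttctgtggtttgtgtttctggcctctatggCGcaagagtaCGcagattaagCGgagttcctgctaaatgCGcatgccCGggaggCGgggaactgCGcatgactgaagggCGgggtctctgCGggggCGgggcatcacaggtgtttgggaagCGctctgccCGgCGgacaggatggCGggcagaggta
The Gm31202 promoter holds 0 CpG and has a GC content of 41%, and 5.32% of the 32619 promoters on the chromosomes with peaks hold none. The Gm14051 and Prl3d1 promoters hold 3 CpG each. Atp6v1f differs from them, with 17 CpG and a GC content of 56.3%. The median of those promoters has a GC content of 53% and 7 CpG. At Gm31202 the melatonin peak (37365017 to 37366017, fold over input 20) and the untreated peak (37364099 to 37365099, fold 4.06) overlapped by 82 bp, and the promoter lay in the untreated peak alone.

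Most shared sites joined 1 peak of each library, and the regions were usually offset. Of the 467 sites, 462 held 1 peak per library and 5 held 2 peaks of one library against 1 of the other. The overlap ran from 4 bp to 2263 bp with a median of 654 bp, and it covered a median of 63.8% of the shorter region. It was at least 500 bp at 296 sites (63.4%) and under 100 bp at 20. The midpoints lay a median of 456 bp apart, and at 50 sites (10.7%) one region lay wholly inside the other. Both regions had the smallest possible width of 1000 bp at 239 sites (51.2%), both were wider at 54 (11.6%) and 1 of them at 174 (37.3%).

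**Figure D1:**
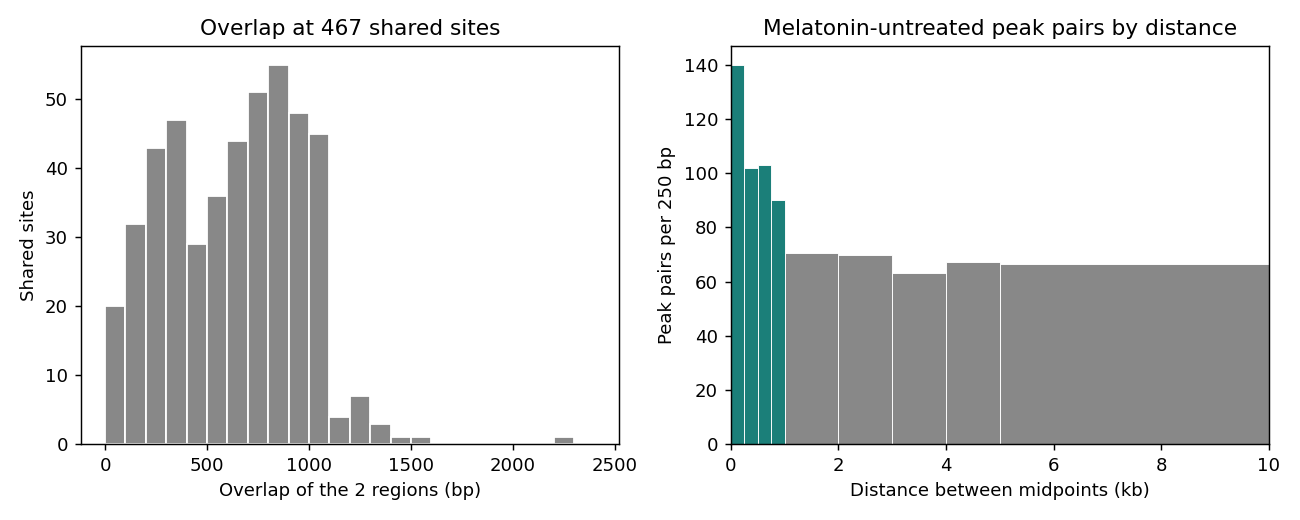
Left, number of shared sites by the overlap of the melatonin and untreated regions in bp (bins of 100 bp). Right, number of pairs of a melatonin and an untreated peak per 250 bp of distance between their midpoints, in kb, with distances under 1 kb in green. Pairs were densest under 0.25 kb, at 140, and levelled at 63.25 to 70.75 per 250 bp between 1 and 5 kb.

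Pairs of a melatonin and an untreated peak were most frequent at the shortest distances. There were 140 pairs with midpoints under 250 bp apart, and 102, 103 and 90 in the next steps of 250 bp. From 1 to 5 kb the number per 250 bp ran from 63.25 to 70.75, and from 20 to 50 kb it was 60.7. These counts are a description, for which no test was made. The limit of 1 bp falls about where this slope levels off. Outside it, gaps of up to 250 bp held 60 pairs, near the number per 250 bp from 1 to 5 kb. For the pairs listed next, folds showed no break between those inside and outside the rule. The smallest overlap inside it was 4 bp, in the lncRNA Gm40536 on chromosome 9 (83336654 to 83338497 with melatonin, 83338493 to 83339831 without, folds 5.93 and 7.21). Next came 6 bp inside Nlgn1, the gene of the synaptic adhesion protein neuroligin 1 (folds 4.22 and 6.77), and 13 bp on chromosome 10 near Egr2 (4.43 and 5.45). Just outside the rule were a gap of 2 bp inside Pard3b on chromosome 1 (folds 4.6 and 5.45), a gap of 6 bp 12 kb from Irf2bp2 (4.46 and 4.91) and a gap of 7 bp 38.4 kb from Fmnl2 (6.96 and 6.84). A further 251 melatonin peaks outside the rule lay within 1000 bp of an untreated peak.

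Tag density at the shared sites was low and much alike in the libraries. On the authors' scale of ChIP tags per 10000000, here divided by region length, melatonin ran from 9.84 to 21.2 tags per kb with a median of 13.4, and untreated from 10.65 to 20.6 with a median of 13.6. The genome mean on this scale is 5, from the authors' file headers. The ranges overlapped almost entirely. The rule kept only regions above thresholds of 18 tags with melatonin and 17 without, so alike densities are partly set by the rule. In a bulk library, fewer cells with the mark and less mark per cell cannot be told apart. Melatonin was higher at 199 sites (42.6%), untreated at 264 (56.5%), and 4 were equal. The median log2 ratio of melatonin to untreated was -0.03, with a SD of 0.20 over sites, and the quartiles of the ratio were 0.885 and 1.06. The thresholds of 18 and 17 tags refer to 14180076.5 and 13198427.5 total tags, so they differ slightly on this scale. The lower quartiles of density were 12.7 with melatonin and 12.9 without. What part of the split and of the median ratio follows from the thresholds was not tested. A ratio of at least 1.5 toward melatonin was seen at 1 site (0.214%) and toward untreated at 2 sites (0.428%). With the authors' score per kb in place of the tag count, these were 43 and 27 sites and the median log2 ratio was 0.067, of the opposite sign. The score is a count in the best window, not scaled to the total tags of each library and not summed over a joined region. Its ratios per kb therefore also carry differences in depth and region width. Across the 467 sites the densities of the libraries gave a Pearson's r of 0.09 and a Spearman's rank correlation of 0.07, as a description of points that share the thresholds. The authors' fold over input gave -0.05 by both measures. The density in one library thus told little about the density in the other among the called sites.

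**Figure D2:**
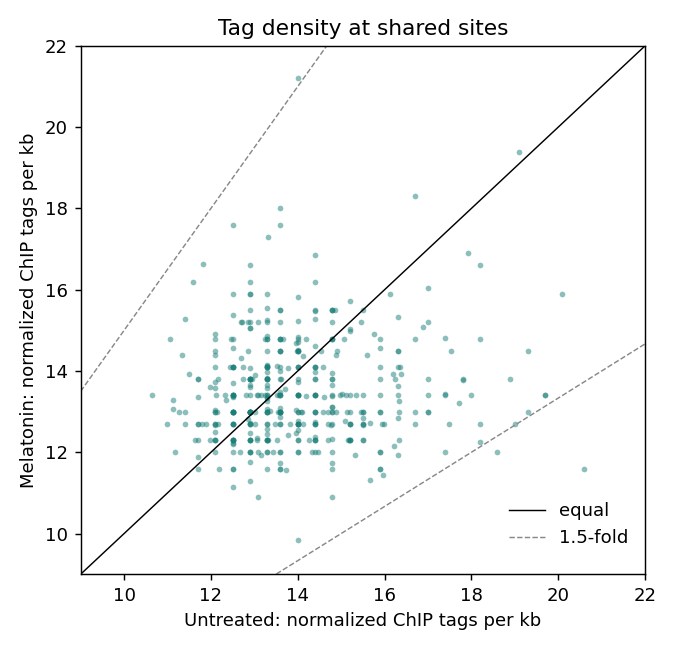
Each point is 1 of 467 shared sites, with normalized ChIP tags per kb in the untreated library on the x axis and in the melatonin library on the y axis. The solid line marks equal values and the dashed lines 1.5-fold differences, past which lie 1 site toward melatonin and 2 toward untreated.

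Among the extremes, the site with the highest ratio lay between genes on chromosome 14 at 72961547 to 72962547 with melatonin and 72962238 to 72963238 without, 62.4 kb from Cysltr2, a leukotriene receptor gene. It had 21.2 tags per kb with melatonin and 14 without, a ratio of 1.51 (exact 95% interval 0.837 to 2.96). The lowest ratio was on chromosome 15 at 63482392 to 63483392 and 63481969 to 63483551, 292 kb from Gsdmc, a gasdermin gene. There melatonin had 11.6 and untreated 20.6 tags per kb, a ratio of 0.563 (0.288 to 0.993), and this was the 1 site of 467 whose interval did not include 1. Only counting error is in these intervals, since each condition had 1 ChIP library. Reads may also be copies of 1 molecule, which the intervals do not cover. The next 4 sites toward melatonin lay 113 kb from Dcn, which encodes the matrix proteoglycan decorin, and in the lncRNA genes 1700052H01Rik, 4732465J04Rik and Gm46401, with ratios from 1.34 to 1.41. Toward untreated they lay nearest to Pik3r1, Magi3, Cd180 and Btg1, with ratios from 0.645 to 0.674, and all 8 of these intervals included 1.

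Among the 10 sites of highest mean density, 7 were intergenic, near the share of all sites (296 of 467, 63.4%). The first lay in the lncRNA Gm46839 on chromosome 3 at 116267398 to 116268398 with melatonin and 116267225 to 116268476 without, 4.08 kb from Cdc14a, a phosphatase gene. It had 19.4 and 19.1 tags per kb and folds of 4.35 and 4.75. The next site, 632 kb from the oncogene Myc, had 15.9 tags per kb with melatonin and 20.1 without. Other sites of this group lay 758 kb from Myc, 1044 and 197 kb from Cited2, 98.4 kb from Klf6, 18.6 kb from Psd3, 46.6 kb from Igf1, the insulin-like growth factor gene, and inside Cubn, which encodes the vitamin B12 receptor cubilin. The fold over input at the 10 sites ran from 4.01 to 8.26.

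The fold over input at these sites had a part from ChIP and a part from low input. In the melatonin library the 471 peaks had a median of 2.67 times the genome mean in ChIP tags, while the genome mean was a median of 1.78 times their input. In the untreated library the 468 peaks had 2.73 times the mean, and the mean was 1.79 times their input. The ChIP part made up a median of 61.3% of the log2 fold with melatonin and 62.8% without. Input lay below the genome mean at all but 1 of the melatonin peaks and at all of the untreated peaks. Peaks needed a fold of at least 4. With ChIP under 4 times the genome mean, this requires input below that mean. Low input was thus largely set by the calling threshold and is a description. For peaks called in 1 library these medians were 2.61 and 2.06 with melatonin and 2.65 and 1.89 without it. The input counts are small, with medians of 3.5 tags per peak with melatonin and 3.9 without, as scaled by the authors' peak caller, so a fold rests on few input reads. The highest fold of a shared site was 43.5 with melatonin, on 0.5 input tags, and 24.4 without.

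A fold of at least 6 was reached in both libraries at 23 of the 467 sites. It was reached at 122 sites with melatonin and at 106 without. In the full lists 2317 of 7699 melatonin peaks and 2017 of 8361 untreated peaks had such a fold. A fold of 10 was reached at 26 sites with melatonin and 13 without, and at 0 sites in both. Folds of the libraries were nearly uncorrelated over the sites (Pearson's r and Spearman's rank correlation -0.05). The counts in both were not compared with those of unrelated folds, so they are a description. Sites were ranked by the mean, over the libraries, of the percentile of their fold within its list. The first lay in the lncRNA Gm14051 on chromosome 2 (132153712 to 132154712 with melatonin, 132153114 to 132155026 without), beside the promoter shown above and 7.79 kb from Slc23a2, a vitamin C transporter gene. Its folds were 8.26 and 10.6, at 13.4 and 13.1 tags per kb. Second was a site in the lncRNA Gm36827 on chromosome 10 (56972779 to 56974093 and 56973149 to 56974149), with folds of 8.7 and 8.33, and 510 kb from the heat shock factor gene Hsf2. The third was intergenic on chromosome 3, 61 kb from the small GTPase gene Rap2b, with folds of 14.35 and 7.14.

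Of the remaining 7 of the 10 highest by fold, 3 lay in protein-coding genes. Dnm3, the gene of the membrane-scission GTPase dynamin 3, had folds of 12.6 and 7.21 and Lekr1 had 10.4 and 7.26. Atp8b5, a phospholipid flippase gene, had 7.39 and 11.5 over an overlap of 943 bp. Intergenic sites 35.1 kb from Bard1, 439 kb from Akr1e1 and 28.5 kb from Il1r2, the decoy interleukin 1 receptor gene, had folds of 7.39 and 13.5, 8.6 and 7.48, and 10.1 and 6.41. The last lay in the lncRNA Gm35446 on chromosome 6, with folds of 17 and 6.23. At all 10 sites the ratio of tag densities was between 0.755 and 1.12, and every exact interval included 1. With few tags these intervals are wide, and ratios near 1 are partly set by the rule.

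Wide shared regions were rare. The largest overlap, 2263 bp, lay on chromosome 12 between 98285231 and 98288145 with melatonin and between 98285500 and 98288060 without, 8.51 kb from Gpr65, a proton-sensing receptor gene. It joined 2 melatonin peaks with 1 untreated peak, at 13.9 and 13 tags per kb. The next overlaps were 1519 bp at 4.15 kb from Ccdc15, 1489 bp at 8.79 kb from Clca4a and 1374 bp at 34 kb from Trim2. The remaining 6 of the 10 widest overlaps ran from 1251 to 1331 bp, among them 1 site 174 kb from the fibronectin gene Fn1 with 11.3 tags per kb with melatonin and 15.7 without. In the melatonin list 28.9% of shared peaks (95% Wilson interval 25 to 33.1) were wider than 1000 bp against 20.3% (19.4 to 21.3) of the others, and in the untreated list 30.8% (26.8 to 35.1) against 19.7% (18.9 to 20.6). A wider region has more sequence with which to overlap, and width is therefore part of what the rule selected.

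Shared peaks lay in protein-coding genes less often than peaks called in 1 library. A protein-coding gene body held 17% of the shared melatonin peaks (80 of 471, Wilson interval 13.9 to 20.6) and 30.1% of the others (29.1 to 31.2). In the untreated list it was 16.9% (79 of 468, 13.8 to 20.5) and 28.6% (27.6 to 29.6). Intergenic peaks made up 64.1% of shared melatonin peaks against 54.6%, and 63.9% of shared untreated peaks against 57%. Bodies of other genes, mostly long noncoding RNAs, held 17.6% against 13.7% and 17.9% against 12.9%. By site, 79 lay in protein-coding bodies, 6 in their 2 kb flanks, 86 in other genes and 296 between genes. The median distance to a protein-coding gene was 64.5 kb for shared melatonin peaks and 23.6 kb for the others, and 64.8 and 32.4 kb in the untreated list. The intervals treat peaks as independent, although they cluster, and cover counting error only.

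**Figure D3:**
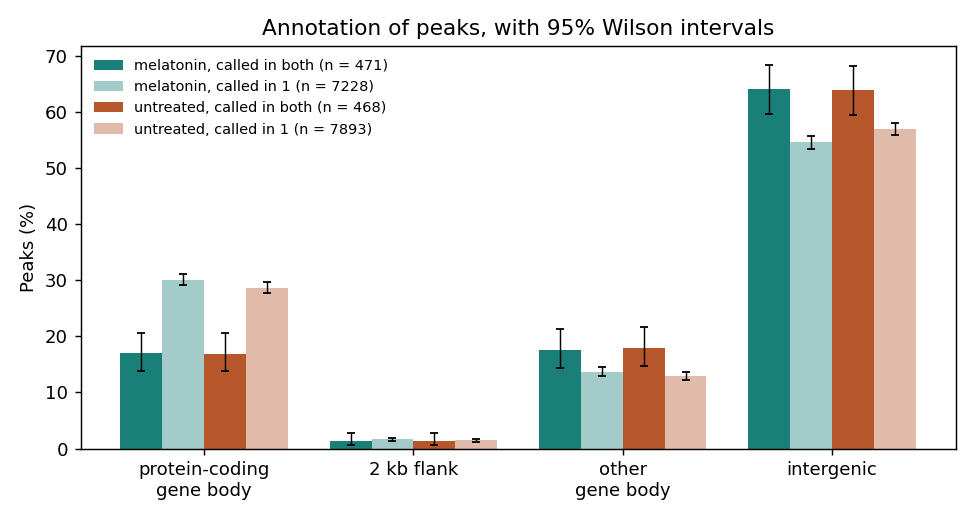
Percent of peaks (y axis) in each annotation class (x axis), for peaks called in both libraries and in 1, with 95% Wilson intervals as error bars. Shared peaks stand at 17% and 16.9% in protein-coding gene bodies, below the 30.1% and 28.6% of the peaks called in 1 library.

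Shared peaks were also found where peaks of the same library were dense, and within each density class their share in genes was the lower one in both lists. The share of melatonin peaks also called without melatonin was 2.84% (2.26 to 3.56) for peaks with 0 to 4 others of the list within 500 kb. It was 5.03% for 5 to 9, 7.48% for 10 to 19 and 15% (12.8 to 17.5) for 20 or more. In the untreated list it went from 3.23% (2.58 to 4.03) through 4.15% and 5.77% to 10.7% (9.28 to 12.3). Where peaks are dense, overlaps are also more frequent by number alone, so this rise is partly set by the rule. Among peaks with 20 or more neighbours, 2.94% of shared melatonin peaks (4 of 136) lay in a protein-coding gene body against 10.5% of the others. In the same class of the untreated list these were 6.74% (12 of 178) and 11.3%, with intervals of 3.9 to 11.4 and 9.84 to 13.1 that overlap. With 0 to 4 neighbours the shares were 27.8% and 35.9% with melatonin and 25.7% and 33.5% without, and these intervals overlap too. Of the 8 comparisons by library and class, the intervals were separate in 1, the melatonin peaks with 20 or more neighbours. Local peak number thus moved together with both sharing and the share in genes, and its part in the difference by annotation was not tested beyond these classes.

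**Figure D4:**
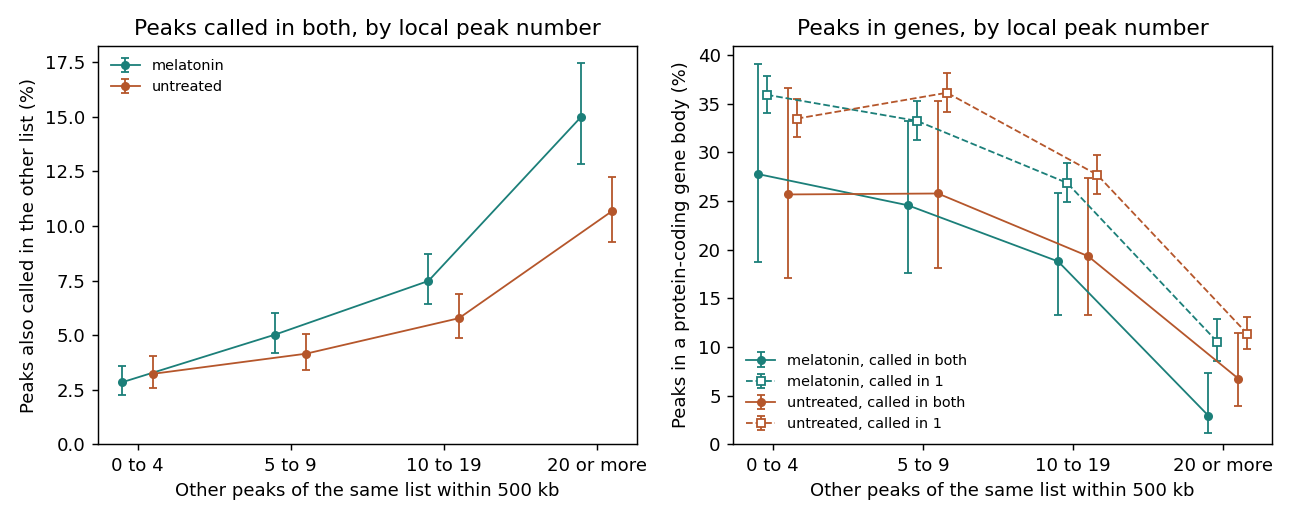
Left, percent of peaks also called in the other library by the number of peaks of the same list within 500 kb. Right, percent of peaks in a protein-coding gene body in the same classes, for peaks called in both libraries (filled) and in 1 (open), with 95% Wilson intervals; the filled points lie below the open points of the same library in all 4 classes.

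The shared sites were unevenly spread over chromosomes. Chromosome 10 held 61 sites, chromosome 13 held 58, chromosome 2 held 50, chromosome 3 held 47, chromosome 1 held 39 and chromosome 15 held 38. Together these 6 chromosomes had 293 sites (62.7%), against 51.5% of all melatonin and 54.7% of all untreated peaks. On chromosome 13, 8.36% of melatonin peaks (6.52 to 10.7) were shared, and on chromosomes 10 and 15 it was 7.75% and 7.77%. Chromosome 17 had 2.64% (1.22 to 5.65), chromosome 14 had 3.53% and chromosome 5 had 3.58%. The X chromosome had 0 of 36 peaks shared in either list, which allows a share of up to 8.33% by a limit of 3 counts (upper Wilson limit 9.64%). The intervals of most chromosomes overlapped, and the share was higher on chromosomes with more peaks per Mb (Spearman's rank correlation 0.73 and Pearson's r = 0.72 over 20 chromosomes, which share the 2 libraries, so this is a description). Where peaks are denser, an overlap of 1 bp is met more easily, so peak density is part of what the rule selected.

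**Figure D5:**
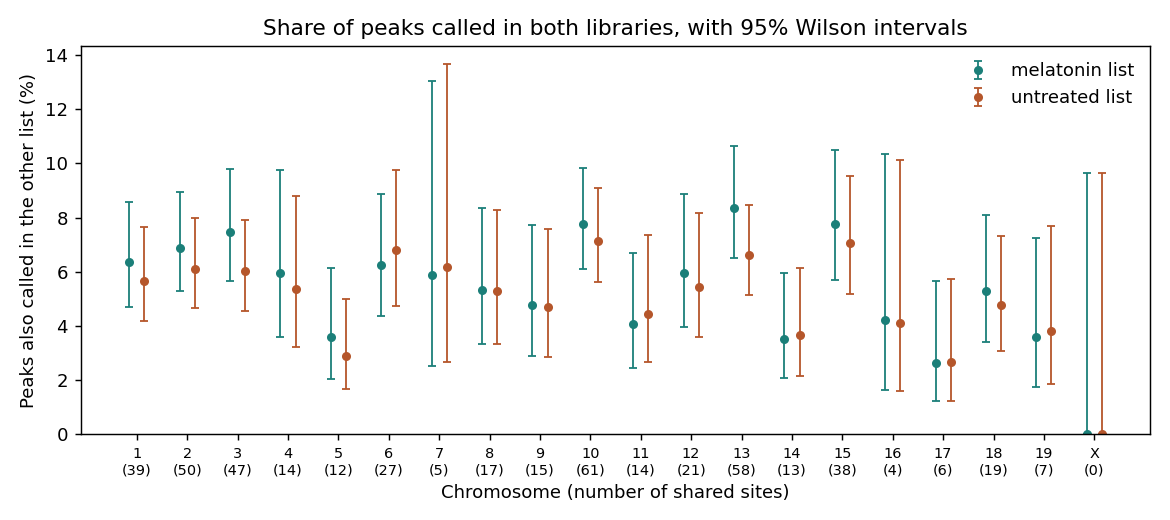
Percent of each library's peaks also called in the other library (y axis) by chromosome (x axis, number of shared sites in brackets), with 95% Wilson intervals. Chromosome 13 is highest in the melatonin list at 8.36%, and the X chromosome has 0 of 36.

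Many sites had another shared site nearby. Another shared site lay within 100 kb for 160 sites (34.3%) and within 1000 kb for 314 (67.2%). In steps of 1 Mb, 15 windows held 5 or more sites each, and they contained 103 sites (22.1%) but 6.03% of melatonin and 7.07% of untreated peaks. These windows are chosen on their number of sites, so their share of sites is a description. None of the 103 sites lay in a protein-coding gene body, against 16.9% of all 467 sites. Among shared peaks with 20 or more neighbours, the share in such a body was also low, at 2.94% with melatonin and 6.74% without. Whether the windows differ in this from other regions dense in peaks was not tested.

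The interval with most sites was chromosome 15 from 62000001 to 64000000, with 20 sites among 64 melatonin and 86 untreated peaks, in the sequence between Myc and Gsdmc. Tag density there had a median of 13 per kb with melatonin (11.6 to 18.3) and 14 without (11.4 to 20.6), and 2 sites lay in the lncRNA genes Gm30113 and Gm30159. Chromosome 13 from 5000001 to 7000000 held 16 sites, nearest to Akr1e1, Klf6, a zinc finger transcription factor gene, and Pitrm1. Of these, 3 lay in the lncRNA Gm46401, with melatonin folds of 5.22, 4.53 and 4.24 and untreated folds of 4.23, 7.69 and 7.12. Chromosome 10 from 16000001 to 18000000 held 15 sites, nearest to Cited2, a transcriptional coregulator gene, and Nmbr, a neuromedin receptor gene. Chromosome 2 from 45000001 to 47000000 held 12, all nearest to Zeb2, a transcriptional repressor gene. The share of melatonin peaks that were shared was 31.2% in the chromosome 15 interval, 25.8% in that of chromosome 13, 22.4% in that of chromosome 10 and 16.7% in that of chromosome 2. It was 6.12% over the whole melatonin list and 15% for melatonin peaks with 20 or more neighbours. The intervals were chosen on their number of sites, so high shares are set by that choice. In the same order they held 64, 62, 67 and 78 melatonin peaks and 86, 99, 103 and 77 untreated peaks.

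The most remote sites lay over 1 Mb from any protein-coding gene. Of the 296 intergenic sites, 147 were over 100 kb and 12 over 1000 kb from one. The farthest, on chromosome 10 at 16378543 to 16380069 with melatonin and 16379290 to 16381129 without, was 1342 kb from Cited2 and had 12.7 and 15.7 tags per kb. Others on that chromosome lay 1313 and 1240 kb from Nmbr. On chromosome 2, neighbouring sites lay 1263 and 1257 kb from Zeb2, and at the latter the regions overlapped by 1251 bp with densities of 14.1 and 13.8 tags per kb.

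Of 21887 protein-coding genes, 77 (0.352%) had a shared site in the body or within 2 kb of it, while 5.94% had any melatonin peak and 5.71% any untreated peak. Peaks of both lists lay in 602 genes, and in 77 of these (12.8%) they met at the same site. Genes with a shared site were long, with a median of 216 kb against 197 kb for genes with peaks in both lists at different places and 17.2 kb for all genes. Of the 77, 28 (36.4%) were longer than 300 kb, as were 2.54% of all genes. For 62 pairs of a site and a gene with a known strand, the gene was cut into 4 equal stretches from its start, and these held 13, 15, 21 and 13 sites.

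More than 1 shared site was found in 7 genes. Lekr1 on chromosome 3 (65659539 to 65836527) held 3 among 6 melatonin and 7 untreated peaks. The site with the highest fold there is given above, and the other 2 had folds of 4.35 and 5.8 with melatonin and 4.49 at both without. Hdac9, which encodes a class IIa histone deacetylase, also held 3, among 22 and 21 peaks over 870 kb. At 34578855, 34775415 and 34863057, the starts of its melatonin peaks, densities were 13.8, 13 and 14.1 tags per kb, and at the untreated peaks 12.9, 12.5 and 13.3. Their overlaps were 346, 63 and 965 bp, and the folds were 4.84, 4.6 and 6.96 with melatonin and 6.12, 10.6 and 4.98 without. The exact intervals of all 3 density ratios included 1, as at all but 1 of the 467 sites.

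Dnm3 had a second site at 162150490 to 162151784 with melatonin and 162150049 to 162151343 without, with 13.6 and 12 tags per kb and folds of 4.83 and 5.25. Prim2, the gene of the large DNA primase subunit, had 2 sites with overlaps of 892 and 567 bp, at 13 and 13.4 tags per kb with melatonin and 15.9 and 14 without. In Cubn the 2 sites had 14.8 and 13.4 tags per kb with melatonin and 16.7 and 19.7 without, and the second had a ratio of 0.68 (exact interval 0.356 to 1.28). Pard3b, a cell polarity gene with 16 melatonin and 31 untreated peaks, had 2 sites overlapping by 970 and 701 bp, with folds between 4.08 and 4.47. Lipk, a lipase gene, had 1 site inside and 1 just beyond its end, with folds of 4.47 and 8.48 with melatonin and 4.08 and 4.98 without.

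Lists of marrow lineage genes held few shared sites in number, and their counts are read beside the 0.352% of all protein-coding genes with one. Of 28 osteoblast genes 1 had a shared site: Esr1, the estrogen receptor alpha gene, at 14 tags per kb with melatonin and 13.6 without (ratio 1.03, exact interval 0.57 to 1.92). In the osteoblast list 3 genes had a melatonin peak and 4 an untreated peak, 2 of them both. Of 16 adipocyte genes 1 did: Zfp521, a zinc finger regulator of fat and bone cell fate, with 12.3 and 12.9 tags per kb over an overlap of 366 bp. None of 19 stromal progenitor genes, 14 chondrocyte genes or 27 senescence and secretory genes had one, although 1, 1 and 0 of them had a melatonin peak and 4, 1 and 3 an untreated peak. At that share a list of this length holds few or no members, so they say little about these lists.

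Nsd2 itself had no peak in either list, and the nearest shared site lay 1722 kb away. Runx2, the master transcription factor of osteoblasts, had 1 melatonin and 2 untreated peaks that did not overlap, and its nearest shared site was 18833 kb away. Sp7 (osterix) and Bglap (osteocalcin) had no peak, with shared sites 5316 and 4039 kb away. None of the 20 H3K36 enzyme and reader genes had a peak, where 5.94% of all protein-coding genes had a melatonin peak and 5.71% an untreated peak.

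Of 25 melatonin and clock genes 1 had a shared site: Cry1, which encodes the circadian repressor cryptochrome 1. Its melatonin peak at 85159322 to 85160322 and untreated peak at 85159961 to 85160961 on chromosome 10 overlapped by 361 bp, with 12.7 and 12.1 tags per kb and folds of 4.47 and 4.56. It was the only peak of each list in the gene. Among 31 nuclear receptor genes Esr1 was the only one with a shared site, while 7 had peaks of both libraries. Of 24 potassium channel genes Kcnj16, an inward rectifier gene, had one (12 and 12.9 tags per kb, folds 7.39 and 5.45), where 6 had peaks of both libraries. Of all 21887 protein-coding genes, 0.352% had a shared site and 602 had peaks of both libraries. Median lengths were 25.5 kb in the melatonin and clock list, 71.9 kb for nuclear receptors and 310 kb for potassium channels. The median of all protein-coding genes was 17.2 kb.

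Of 40 genes of neuronal synapse and adhesion, with a median length of 994 kb, 3 had a shared site (7.5%, against 0.352% of all protein-coding genes, whose median length is 17.2 kb): Nlgn1, Dlg2, a synaptic scaffold gene (11.6 and 12.2 tags per kb), and Magi2, another scaffold gene (12 and 13.1). Peaks of both libraries lay in 11 of these 40, and in 602 of all 21887 protein-coding genes.

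No shared site lay in 13 endothelial, 17 macrophage and myeloid or 18 lymphoid and erythroid marker genes, nor in 18 housekeeping genes, and with 0.352% of all genes holding one, lists of this length hold few or none. Any melatonin peak was found in 3, 2, 0 and 0 of them and any untreated peak in 2, 1, 0 and 0.

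Outside protein-coding gene bodies and their flanks, noncoding genes held 86 of the shared sites, in 72 lncRNA genes, 6 pseudogenes and 3 transcribed pseudogenes. Besides Gm46401, 6 lncRNA genes held 2 sites each. They included Ptgs2os, the antisense neighbour of the prostaglandin synthase gene Ptgs2, on chromosome 1. Its sites began at 150074613 and 150086346 with melatonin, with 13.8 and 15.2 tags per kb, against 18.9 and 13.3 in the untreated library. Gm28643, 15.8 kb from Zeb2, had sites with folds of 4.78 and 4.35 with melatonin and 6.99 and 6.64 without. A930035F09Rik near Nrp1, a semaphorin and VEGF coreceptor gene, had 13.1 and 13.8 tags per kb with melatonin and 11.1 and 13.3 without. The others were Gm14051, Gm35111 and Gm20125, and 1 site of Gm20125 had a fold of 10.65 with melatonin and 4.49 without. Among lncRNA sites high in fold, 7530428D23Rik stood out for its melatonin fold of 43.5 on 0.5 input tags, where the untreated fold was 5.39 on 9.4 and the tag densities were 13.4 and 15. Further ones by rank were 1700017G19Rik, 4930412B13Rik, 4930459C07Rik, Gm5833 and the transcribed pseudogene Gm31520, with folds from 5.94 to 8.17. No shared site overlapped a miRNA hairpin of the RefSeq table.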

How the data were processed

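H3K36me2 ChIP peaks of 2 libraries of mouse bone marrow MSCs were analysed, 1 per condition, grouped by the treatment label. The general treatment text names melatonin for every sample, so it was not used for grouping. Reads were processed with BWA 0.7.13, Picard 1.126 and MACS2 2.1.0 per the submitters' processing notes, while the peaks were called with HOMER findPeaks in histone style against input, per the file headers; its version is not given in the sources used here. Those headers give 14180076.5 and 13198427.5 total tags, windows of 1000 bp, thresholds of 18 and 17 tags, a fold over input of at least 4 and a p-value limit of 0.0001.

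The deposited values are, per peak, a normalized tag count (a signal per 10000000 tags), ChIP and input tag signal, the findPeaks score, the ratio (fold) over input and its p-value, all computed by the authors. The processing notes name mm39, but the coordinates were read as GRCm38: peak midpoints fell in protein-coding genes at 29.1% and 27.8%, against 37.7% to 42.9% after shifts of 100 to 500 kb, so that annotation depends on this reading. This check compares positions with the annotation and does not test mm39 itself. Peaks were intersected at 1 bp or more, joined into sites and assigned to RefSeq genes with 2 kb flanks. Percentages carry 95% Wilson intervals and density ratios exact intervals, which cover counting error only.

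Named sites were the 10 highest in mean fold percentile, in tag density and in overlap, the 5 highest and 5 lowest density ratios, genes with 2 or more sites, the 10 highest in noncoding genes, the 5 farthest from a gene, members of 15 gene lists, Nsd2, Runx2, Sp7 and Bglap, and the 3 pairs on each side of the overlap limit. Further sites and the lncRNA genes with several sites were named after their values were seen. Members and lists were chosen with earlier results of these data known. The result of 1 gene list is not reported here. Of the lists' genes, Ighm had no protein-coding entry. Scripts were tested on simulated data and used Python 3.11.15, numpy 2.4.6, pandas 2.3.3, scipy 1.17.1 and matplotlib 3.10.9. Alternatives were a stricter overlap, a stricter fold, equal peak numbers, other flanks, the score in place of the tag count, and centring of the ratios. Promoters on chromosome 18 were not used here. The input libraries were not analysed here beyond the input tags in the peak lists.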

Additional observations from a re-analysis of the deposited data

How the results depend on the processing

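With an overlap of at least 50% of both peaks, 241 melatonin peaks, 241 untreated peaks and 241 sites were shared, in 45 protein-coding genes, and 0 sites had melatonin at least 1.5 times untreated. With a fold of at least 6 in both lists, 23 melatonin peaks, 23 untreated peaks and 23 sites were shared (0.993% of 2317 melatonin peaks), in 3 genes, with 13% of sites in protein-coding bodies and 0 sites past 1.5 times in either direction. With each list reduced to its 3849 peaks of lowest p, 134 melatonin peaks, 134 untreated peaks and 134 sites were shared (3.48% of either list), in 15 genes, with 11.9% in protein-coding bodies. The median log2 ratio was then -0.084, and 0 sites were past 1.5 times toward melatonin and 1 toward untreated. These settings start from fewer peaks or keep fewer pairs by construction. Flanks of 10 kb left 58.5% of sites intergenic. With the score per kb in place of the tag count, the median log2 ratio was 0.067, with 43 sites past 1.5 times toward melatonin and 27 toward untreated; the score is the count of the best window, neither summed over a joined region nor scaled to depth. The other 14 of 38 recomputed values stayed within 1.5 times for counts or within their spread. No paired analysis was possible because each condition had 1 ChIP library. The depth, a median of 13.8 normalized tags per shared melatonin peak and 14.4 per shared untreated peak, limits every density ratio, and no library could be left out.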
